A study of Drosophila melanogaster with 4 samples.

Results

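The odd-skipped cluster of Drosophila melanogaster is a run of genes on chromosome arm 2L that includes odd, sob and drm, 3 members of the odd-skipped family. Chromatin over it was examined as all regions enriched for trimethylation of histone H3 (H3K27me3) that touched 2L between 3.53 and 3.73 Mb, a window of 200 kb in FlyBase release 5 set to hold the cluster. The regions were chosen by position, and the window itself was proposed with earlier results of these data known. It took in 28 of 25702 regions in the 3 lists at hand: 8 of 4865 in replicate 1, 10 of 10330 in replicate 2 and 10 of 10507 in the list for the whole series. H3K27me3 had been mapped by ChIP-seq, which sequences the DNA brought down with an antibody, in nuclei from adult heads of the wild-type strain Oregon-R. The flies, mixed adults from cages run on overlapping cycles of 22 days, carried no transgene that the labels name. There was 1 condition, with 2 ChIP libraries made with an Abcam antibody of lot 3 and 2 input libraries, 1 for each ChIP. Heads hold many cell types, so a region called in this material does not tell which of them carry the mark, and head identity could not be checked from lists of regions. Nothing in the labels says that the replicates were collected separately, and any spread between them could be technical.

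H3K27me3 is written by the Polycomb repressive complex PRC2 and marks developmental regulators that a tissue keeps silent, often as broad domains over whole gene clusters. The odd-skipped family encodes transcription factors with C2H2 zinc fingers. The gene odd is a pair-rule gene that sets up alternate segments of the embryo. The product of drm acts in the gut and in the epidermis by relieving the block that the protein Lines puts on Bowl, the product of a further family gene, bowl. The gene sob is named as the sister of odd and bowl, and the family acts downstream of Notch in the joints of the developing leg.

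In the order of genes of a later release (6), drm comes first, then sob, then odd. All 3 symbols were matched. Between drm and odd lie 7 other genes, sob included, of which 5 are annotated as long non-coding RNAs (3 between drm and sob and 2 between sob and odd) and 2 as protein-coding (CG43815 and sob itself). On the drm side the nearest gene is lncRNA:CR44308, followed by IFT57. On the odd side come lncRNA:CR44310, Ugt36A1 and CG15418, then for, the gene of a cGMP-dependent protein kinase known for its part in foraging behaviour, and Drgx, which encodes a homeodomain protein. bowl lies beyond odd with 38 genes between them, 32 of them protein-coding. Only this order was taken from that release. Positions below are release 5, and no region is assigned to a single gene.

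Most of the window was marked in both replicates. Regions covered 74.4% of it in replicate 1 (148.7 kb) and 71.1% in replicate 2 (142.3 kb), a mean of 72.7% ± 2.29 (SD, n = 2). The whole-series list covered 77.6% (155.2 kb). How it was made is not stated, so it is not taken as independent of the replicates. The rest of 2L had 25.5% in replicate 1 and 33.0% in replicate 2. Within each library the window thus exceeded the rest of the arm by 48.8 and 38.1 percentage points, a mean difference of 43.5 ± 7.58 (SD, n = 2). With 2 libraries of 1 condition no test of this difference was run. In bins of 1 kb, counted as covered when at least 50% of the bin lay in regions, 149 of 200 bins of the window were covered in replicate 1, where 26.2% of all bins of 2L were. In replicate 2 the count was 143 of 200, against 33.9% of the arm. In both replicates together it was 136 of 200, against 21.6%, and in the whole-series list 155 of 200, against 40.2%.

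The marked sequence was not 1 domain but 2 broad blocks, with narrower regions over part of the sequence between them and an end without calls. The first block filled the part of the window from its start on, with almost no break. The second began beyond a stretch of 37.7 kb and was less compact. The 20 kb at the far end of the window held no region in any list.

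**Figure D1:**
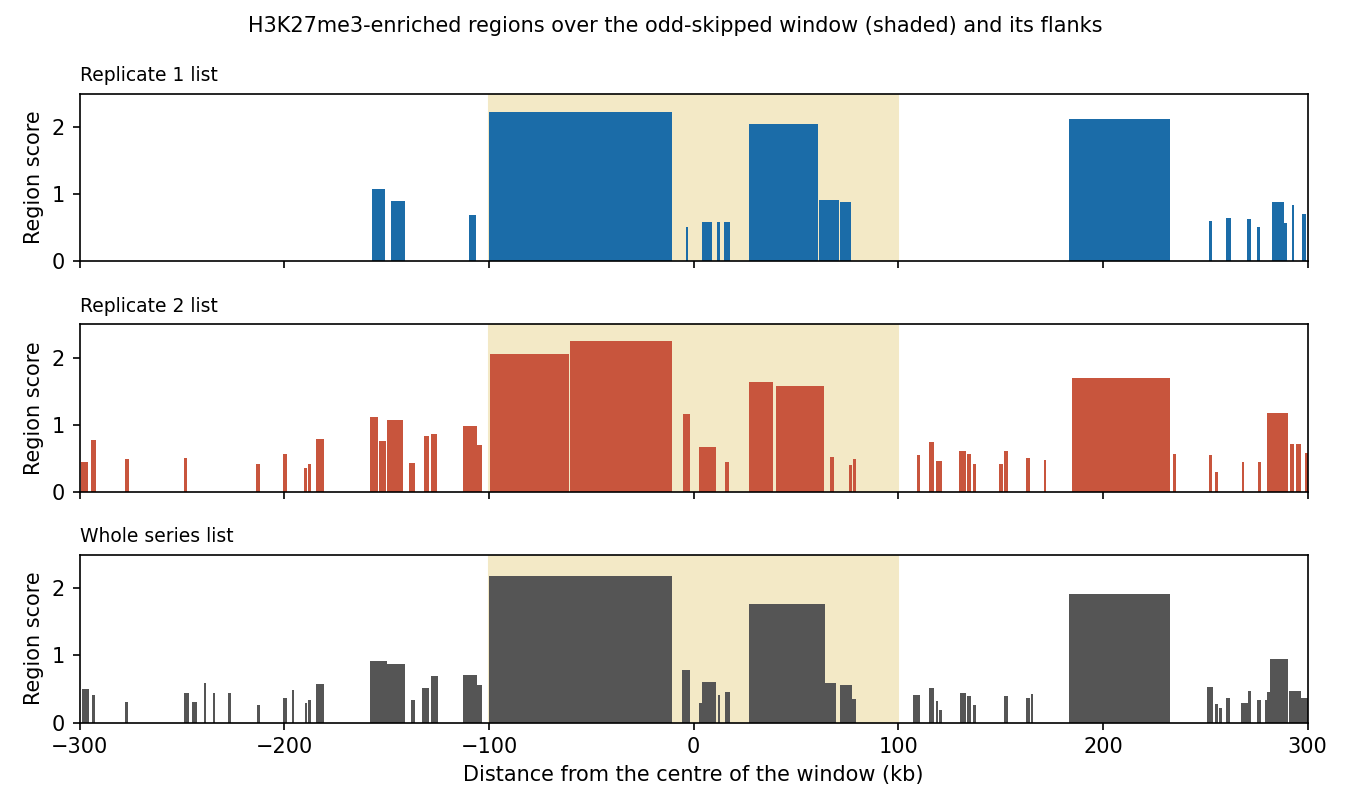
Enriched regions over the window (shaded) and 200 kb on either side in the list of replicate 1 (top), replicate 2 (middle) and the whole series (bottom). Each bar is 1 region, its width the length of the region in kb and its height the score that the authors deposited. The tall bars at the left and right of the shaded part are the 2 blocks, and the tall bar near 200 kb is the wide region of the right flank.

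The first block was called as 1 region in replicate 1. It ran from 3529938 to 3619384 (89447 bp) with a score of 2.22. In replicate 2 the same sequence came as a pair of regions, at 3530338 to 3568888 (38551 bp, score 2.06) and at 3569476 to 3619375 (49900 bp, score 2.25), with a break of 587 bp. The whole-series list again had 1 region, at 3529945 to 3619407 (89463 bp, score 2.18). The region of replicate 1 starts 62 bp outside the window, so the edge of the window coincides with the edge of the block. The replicates placed the start of the block 400 bp apart and its end 9 bp apart. From first to last base the block measured 89.4 kb in replicate 1 and 89.0 kb in replicate 2, and replicate 2 covered 98.9% of the region of replicate 1.

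No source used here gives the scale of the scores. Regions were ranked by score within a list, and other score values are given as deposited or as medians and length-weighted means. Whether score values can be compared between lists is not known. By score, the region of the first block stood at the top of 2L in replicate 1, rank 1 of 1051 regions on the arm and rank 23 of 4865 in the list. In replicate 2 the longer of the pair was rank 1 of 2009 on 2L and rank 40 of 10330 in the list, and the shorter was rank 7 on the arm. In the whole-series list the block was rank 5 of 2061 on 2L. The 4 regions above it there were at most 1355 bp wide. By width the block stood less high, at rank 10 on 2L in replicate 1 and rank 11 in the whole-series list. The regions that made it up in replicate 2 were rank 4 and rank 8 by width. The position at the head of the arm by score thus held for both replicates, in which the block was cut differently.

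**Figure D2:**
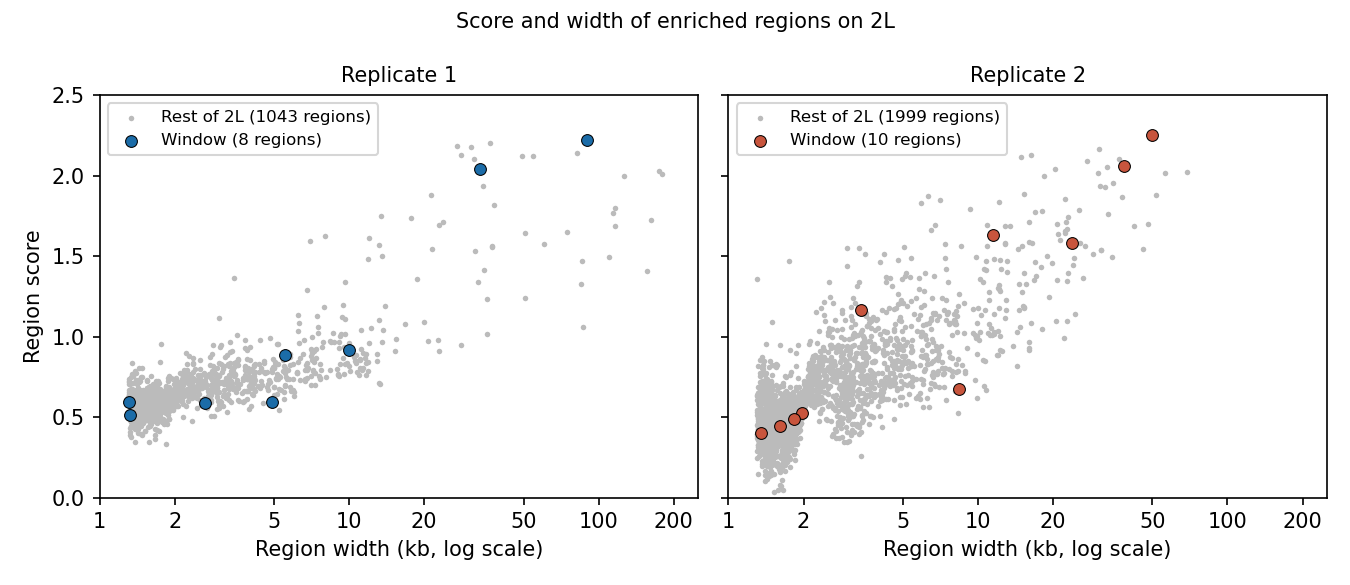
Score (vertical axis, as deposited) against width (horizontal axis, kb, log scale) of each enriched region on 2L in replicate 1 (left) and replicate 2 (right). Large points are the 8 and 10 regions of the window, small points the other 1043 and 1999 regions of the arm. The highest point of each panel belongs to the first block, while the narrow regions of the window lie among the other narrow regions of 2L.

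The second block was less evenly called. Its extent is given after regions under 2 kb apart were joined, a distance chosen after the values were seen. In replicate 1 it ran from 3657182 to 3706875 (49.7 kb) in 3 regions, a wide one at 3657182 to 3690796 (33615 bp, score 2.04), one of 9995 bp at 3691139 to 3701133 (score 0.92) and one of 5553 bp at 3701323 to 3706875 (score 0.89). In replicate 2 it ran from 3657255 to 3693948 (36.7 kb) in a pair of regions, at 3657255 to 3668749 (11495 bp, score 1.63) and at 3670190 to 3693948 (23759 bp, score 1.58). In the whole-series list it ran from 3657150 to 3709435 (52.3 kb) in 4 regions, led by one of 36927 bp with a score of 1.77, at 3657150 to 3694076. The others lay at 3694191 to 3699721 (score 0.58), 3701525 to 3707339 (0.56) and 3707535 to 3709435 (0.36). The score thus fell along the block in replicate 1 and in the whole-series list, from the wide leading region to narrower ones of lower score.

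With this joining, the replicates placed the start of the second block 73 bp apart and its end 12927 bp apart. Both depend on the joining. When only regions under 1 kb apart were joined, the widest stretch of replicate 2 here was its region of 23.8 kb, which started 13008 bp after that of replicate 1. When regions under 5 kb apart were joined, the block of replicate 2 ended at 3698655. Beyond 3693948, replicate 2 had 3 narrow regions left, at 3696680 to 3698655 (1976 bp, score 0.53), 3706037 to 3707390 (1354 bp, score 0.40) and 3707638 to 3709476 (1839 bp, score 0.49). The last of these touched no region of replicate 1. The 3 longest stretches covered in replicate 1 only all lay in this part, at 3701323 to 3706036 (4714 bp), 3693949 to 3696679 (2731 bp) and 3698656 to 3701133 (2478 bp). The whole-series list covered 95.7%, 95.8% and 43.0% of them. The replicates thus parted most in length at the far end of the second block.

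Weighted by length, the first block had a score of 2.22 in replicate 1, 2.17 in replicate 2 and 2.18 in the whole-series list. The second block had 1.68, 1.60 and 1.45. The first block was higher in each list. On 2L the median score of regions of 20 kb and over was 1.69 in replicate 1 (43 regions), 1.67 in replicate 2 (47 regions) and 1.40 in the whole-series list (58 regions). These medians are of single wide regions, while the weighted scores of the second block also take in narrower regions. By score on 2L, the wide region of the second block was rank 10 in replicate 1 and rank 19 in the whole-series list. Its pair of regions in replicate 2 had ranks 45 and 50.

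Between the blocks, from 3619408 to 3657149 (37.7 kb), no region reached 10 kb. Regions covered 26.95% of this sequence in replicate 1 (4 regions), 35.5% in replicate 2 (3 regions) and 41.4% in the whole-series list (5 regions). On the rest of 2L the shares were 25.5%, 33.0% and 39.4%, so this stretch stood close to the arm as a whole in each list. The Jaccard index of the replicates, the length covered in both over the length covered in either, was 49.7% here. The widest region of replicate 1 measured 4887 bp (3634128 to 3639014) and lay wholly within one of 8385 bp of replicate 2 (3632710 to 3641094). Their scores were 0.59 and 0.68. A region of 1306 bp at 3641660 to 3642965 in replicate 1 had no counterpart in replicate 2. The scores of the 4 regions of replicate 1 lay between 0.51 and 0.59, below the median of 0.67 for all its regions on 2L. In replicate 2 they lay between 0.45 and 1.17, 2 of the 3 above its median of 0.64, and the highest was that of a region of 3387 bp at 3624946 to 3628332. Replicate 1 had only a region of 1323 bp there, at 3626104 to 3627426, with the score of 0.51. The last region before the second block measured 2657 bp in replicate 1, at 3644921 to 3647577 (score 0.59), and 1608 bp in replicate 2, at 3645473 to 3647080 (score 0.45).

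The whole-series list had 5 regions between the blocks. They lay at 3624461 to 3628365 (score 0.78), 3632744 to 3634063 (0.29), 3634159 to 3641157 (0.60), 3641857 to 3642914 (0.41) and 3645206 to 3647543 (0.46). The second of these touched no region of replicate 1, and the fourth lay where replicate 1 alone had a call.

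The longest break inside the marked part lay just before the second block and was found in each list. It measured 9604 bp in replicate 1 (3647578 to 3657181), 10174 bp in replicate 2 (3647081 to 3657254) and 9606 bp in the whole-series list (3647544 to 3657149). After the last region the window was empty from 3709477 on in all lists, and the next region began at 3737290 in the whole-series list and at 3739009 in replicate 2. In replicate 1 the empty stretch went on for 106.4 kb, to 3813283. Sequence without a call may hold signal below the authors' threshold, which the lists do not show.

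**Figure D3:**
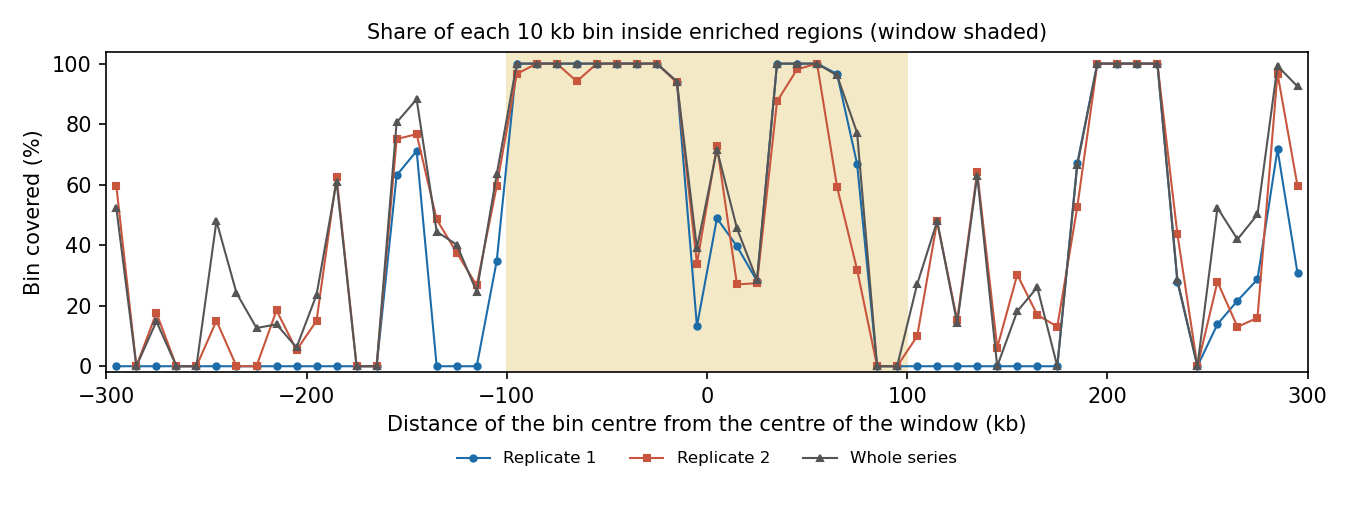
Share of each 10 kb bin inside enriched regions (vertical axis, %) by distance from the centre of the window (horizontal axis, kb) for the 3 lists, with the window shaded. In the first 8 bins of the window the lines run between 94.1% and 100%, and in the last 2 bins they are at 0.

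Wide regions carried most of the cover. Regions of 20 kb and over made up 82.7% of the covered length of the window in replicate 1 (2 regions), 78.9% in replicate 2 (3 regions) and 81.4% in the whole-series list (2 regions). Their median scores were 2.13, 2.06 and 1.98. The other 6, 7 and 8 regions had median scores of 0.59, 0.53 and 0.51. Score rose with width on the whole arm too, from a median of 0.58 under 2 kb to 1.69 at 20 kb and over in replicate 1 and from 0.48 to 1.67 in replicate 2. The regions under 2 kb in the window scored 0.51 and 0.59 in replicate 1 and 0.40 to 0.53 in replicate 2, close to the medians of this class on the arm. In replicate 1 the window's regions of 2 to 5 kb scored 0.59, below the class median of 0.70. On the arm 349 of 375 of this class scored higher. In replicate 2 the 1 region of this class scored 1.17, against 0.72. The medians at 5 to 20 kb were 0.90 in the window and 0.84 on the arm in replicate 1, and 1.15 and 1.03 in replicate 2. In the window each was of 2 regions only. These scored 0.89 and 0.92 in replicate 1, and 0.68 and 1.63 in replicate 2, on either side of the arm's median. In the whole-series list the medians at 5 to 20 kb were 0.58 in the window (3 regions) and 0.67 on the arm. At 2 to 5 kb they were 0.62 (2 regions) and 0.49.

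The number of pieces depends on short breaks. Of the gaps between neighbouring regions in the window, 2 of 7 were under 1000 bp in replicate 1, where 31.7% of such gaps on 2L were. In replicate 2 the count was 2 of 9 (32.4% on the arm) and in the whole-series list 4 of 9 (41.7%). The break of 587 bp that split the first block in replicate 2 was covered in both other lists. The gap of 1440 bp that split the second block there, at 3668750 to 3670189, was also covered in both other lists. The shortest gap in the window was 95 bp, in the whole-series list, and on 2L a few regions abutted with no base between them (1 case in replicate 1 and 3 in the whole-series list).

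The replicates overlapped to a large extent over the window. They had 134.0 kb in common. This was 90.1% of what replicate 1 covered and 94.2% of what replicate 2 covered, and the Jaccard index was 85.4%. Of the regions in the window, 7 of 8 of replicate 1 touched a region of replicate 2, against 85% of all its regions on 2L, and 9 of 10 of replicate 2 touched one of replicate 1, against 54.4%. The count for replicate 1 is near its background. On the rest of 2L, 81.4% of what replicate 1 covered and 62.9% of what replicate 2 covered were shared, and the index was 55.0%. Shared length, the index and the counts of touching regions all depend on cover. The window was covered to 74.4% and 71.1%, the rest of 2L to 25.5% and 33.0%. The higher values in the window are thus not read as better agreement. Among the 9 windows of 200 kb on 2L with a mean cover of at least 70%, the index of this window was the lowest (median 88.1%). The length covered in 1 replicate only came to 14.7 kb in 11 stretches for replicate 1 and 8.26 kb in 7 stretches for replicate 2. The whole-series list held 99.98% of the sequence covered in both.

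The ends of the blocks gave a finer comparison. Of the 4 ends of the wide regions of replicate 1 in the window, 2 lay within 100 bp of the same kind of end in replicate 2, as did 20.9% of the 86 such ends on 2L. Of the 6 ends of the wide regions of replicate 2, 1 did, against 9.57% of 94. The numbers are too small to set the window apart from the arm.

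Against other windows of 2L, the odd-skipped window was among the well covered ones but not at the top. Of 114 windows of 200 kb laid end to end over the arm, this one included, 10 were covered to at least 70% in replicate 1 (8.77%), 9 in replicate 2 (7.89%) and 15 in the whole-series list (13.2%). By cover it had rank 9 in replicate 1, rank 8 in replicate 2 and rank 11 in the whole-series list. The median window had 18.4%, 30.4% and 38.2%, and the highest 88.1%, 88.5% and 90.6%. By the Jaccard index of the replicates it had rank 12 of 114, with a median of 46.0% over the windows. The limit of 70% was set after its value was seen and lies just below it. Among the 9 windows with a mean cover of at least 70%, it had the lowest cover (72.7%) and the lowest Jaccard index (85.4%, median 88.1%). It was cut into 10 pieces in replicate 2, where these 9 windows had 9 to 24, and into 8 in replicate 1, where they had 1 to 15.

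The window had less cover in replicate 2 than in replicate 1, by 3.23 percentage points, although the list of replicate 2 was the longer. Of the 114 windows, 22 (19.3%) had less cover in replicate 2. Most of the 9 windows with a mean cover of at least 70% did too. In these, this window included, replicate 2 minus replicate 1 was -10.9, -3.73, -3.31, -3.23, -2.98 and -1.48 percentage points. The remaining ones had 0.43, 0.82 and 4.96 points. The lower cover in replicate 2 thus does not set this window apart from other well covered ones. Replicate 2 covered 0.957 times the length of replicate 1 in the window and 1.29 times on the rest of 2L.

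**Figure D4:**
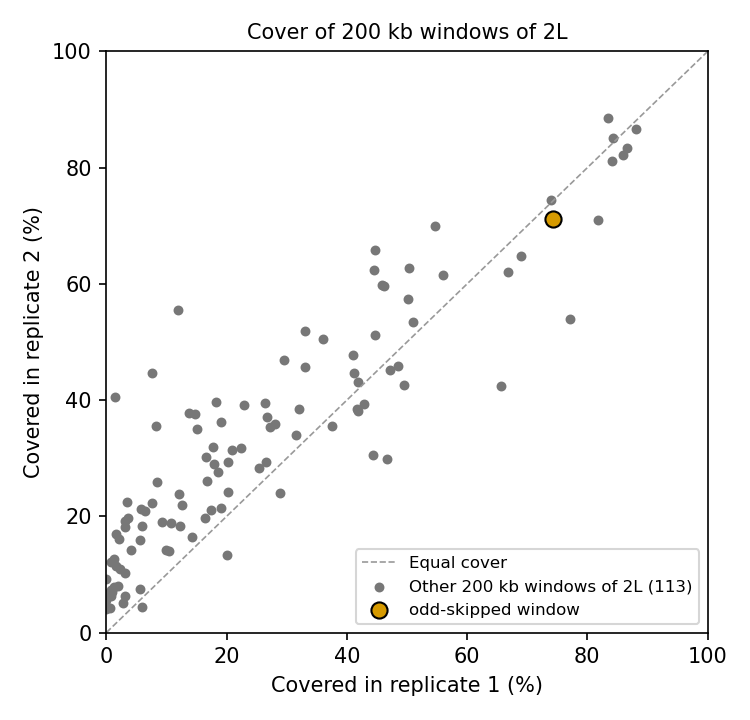
Share of each of the 114 windows of 200 kb on 2L covered in replicate 1 (horizontal axis, %) and in replicate 2 (vertical axis, %), with the odd-skipped window as the large point and equal cover as the dashed line. The odd-skipped window lies just below the line at 74.4% and 71.1%, and most sparsely covered windows lie above it.

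The flanks differed from the window and between the replicates. In the 200 kb before the window, regions covered 8.45% in replicate 1 and 25.9% in replicate 2, a mean of 17.2% ± 12.3 (SD, n = 2). In the 200 kb after it they covered 33.1% and 45.7%, a mean of 39.4% ± 8.89 (SD, n = 2). Replicate 2 covered 3.06 times as much as replicate 1 in the first flank and 1.38 times as much in the second. The Jaccard index was 28.6% and 60.6%, below the 85.4% of the window. In the first flank all 3 regions of replicate 1 that lay outside the window touched replicate 2, but 4 of 17 regions of replicate 2 touched replicate 1. In the second flank 7 of 9 regions of replicate 1 and 6 of 20 of replicate 2 were met. Of all regions on 2L, 85% of replicate 1 and 54.4% of replicate 2 touched the other replicate. The few regions of replicate 1 in the flanks were thus near its share on the arm, and those of replicate 2 were below its share. The index and these counts depend on how much the other replicate covered nearby. Replicate 1 covered 8.45% and 33.1% of the flanks, against 25.5% of the rest of 2L and 74.4% of the window. How far cover accounts for the lower values in the flanks was not tested.

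The nearest region before the window ended at 3523823 in replicate 1 (3420 bp, score 0.69) and at 3526428 in replicate 2 (2057 bp, score 0.71), in the latter 3.91 kb before the first block. The medians of all regions on 2L were 0.67 and 0.64. The first block opened with a region of rank 1 by score on 2L in replicate 1 and of rank 7 in replicate 2. In the second flank the cover came mainly from 1 wide region, at 3813284 to 3862787 in replicate 1 (49504 bp, score 2.12, rank 7 on 2L) and at 3814731 to 3862843 in replicate 2 (48113 bp, score 1.70, rank 34 on 2L). Its ends in the replicates lay 1447 bp and 56 bp apart. Between the window and this region replicate 1 had no call and replicate 2 had 10 narrow ones, from 1308 to 3124 bp wide, with scores from 0.42 to 0.74.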

How the data were processed

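The samples were 2 H3K27me3 ChIP libraries and 2 inputs from adult heads. Per the submitters' processing notes, reads were aligned with Bowtie 0.12.7. Per the file headers, positions are on FlyBase release 5. The score of a region is a value the authors deposited. The region caller, its settings, the score's scale and how the whole-series list was made: not given in the sources used here. The starts and ends, another kind of value, are those the authors deposited in bp, 1-based. Read depth is unknown, and no error from depth can be given. The list of replicate 2 held 1 depleted region, which was left out.

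Cover, pieces, overlap of at least 1 bp, Jaccard index and length-weighted score were computed with Python 3.11.15 and numpy 2.4.6. The code for cover, Jaccard index and joining was tested on 200 simulated lists and was exact in all 200. The Jaccard index was tested on nested lists only, and no simulated regions abutted. For pieces, separate ways of counting were compared with each other, not with a known number, and were equal in all 200. Pieces are regions touching the window. Windows of 200 kb were laid so that the window's start is a boundary. Wide means 20 kb and over. All regions touching the window were named by rule, with the nearest region beyond each end and the 3 longest stretches of 1 replicate. The wide region of the second flank was named after its values were seen. The window, members and lists were chosen with earlier results of these data known. Gene order was taken from a RefSeq table of release 6 and no position was carried over. Cover per gene, promoter motifs and protein comparisons were not analysed here. Alternatives were score limits, minimum widths, joining, lists of equal length, other window edges and each replicate alone.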

Additional observations from a re-analysis of the deposited data

How the results depend on the processing

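The rank of the window by mean cover stayed at 9 or 10 of 114 under the score limit, both minimum widths, both joinings and lists of equal length, and at 8 and 9 with each replicate alone. It was 19 of 229 with the window narrowed by 50 kb on each side and 7 of 76 with it widened by 50 kb on each side. With windows slid by 10 kb it was 108 of 2281. In these cases the number of windows changed by construction. The mean cover of 72.7% became 66.4% with scores at or above the list median, 70.4% with regions of at least 2 kb, 67.7% with regions of at least 5 kb, 77.6% joined at 5 kb, 68.95% with lists of equal length and 56.8% in a window widened by 50 kb on each side, and each replicate alone gave 71.1% to 74.4%. The mean number of pieces, 9.0, became 4.5 with the score limit and with a minimum of 5 kb, 4.0 joined at 5 kb and 16.5 in the wider window. The Jaccard index of 85.4% became 86.7% with the score limit, 83.6% and 83.8% with minimum widths of 2 and 5 kb, 85.7% and 88.8% joined at 1 and 5 kb, 82.5% with lists of equal length, and 87.9% and 72.6% in the narrower and wider window. The length-weighted score of 1.88 became 2.01 with the score limit, 1.97 with a minimum of 5 kb, 1.96 with lists of equal length and 1.73 in the wider window. The cover of the flanks, 28.3% as a mean of both sides and replicates, became 17.6% with a minimum of 5 kb and 40.6% around the narrower window, which takes in parts of the blocks. The share of all 1 kb bins of 2L that were covered, 30.0%, became 22.3% with the score limit, 17.3% with a minimum of 5 kb, 36.4% joined at 5 kb, 24.4% with lists of equal length and 22.9% when the whole bin had to be covered. The outermost starts of the replicates, 400 bp apart, lay 12607 bp apart when regions under 5 kb apart were joined, because replicate 2 then ran on to 3517331 in the flank, and the outermost ends stayed 2601 bp apart. The blocks were defined after the data were seen. Joined at 5 kb, the mean width of the first block became 95.7 kb in place of 89.2 kb, and joined at 1 kb the second block of replicate 2 measured 23.8 kb in place of 36.7 kb. In the cases not explained by construction the cause was not tested. No paired analysis was possible because no list of an input library was used here, so no groups were tested against each other. Unknown depth limits every comparison of cover between the replicates.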
